A study of Mus musculus with 24 samples.

Results

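Basal cells of the mouse mammary gland were sorted by Lgr5 and Tspan8, and the comparison described here set the Polycomb mark H3K27me3 in Lgr5+Tspan8- cells against that in Lgr5-Tspan8- cells. Both groups lacked Tspan8 and differed in Lgr5. The members were the 4 H3K27me3 libraries of these 2 subpopulations, 2 each, taken by their labels from 24 samples in all. The whole series also held 2 H3K27me3 libraries of Lgr5+Tspan8hi and 2 of Lgr5-Tspan8hi cells, 8 H3K4me3 libraries of the same 4 subpopulations, and 8 input samples that were not analysed here. All cells came from untreated C57BL/6 females, and the labels name no transgene, no age and no other allele. They do not say how Lgr5 was detected in the sort or how many animals were pooled, so that a lower count cannot be told apart as fewer cells with the mark or less of it in each cell. Nothing says that replicates came from separate animals, so a p-value here covers only the spread between libraries, which may be technical.

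H3K27me3 is trimethylated on histone H3 by the Polycomb repressive complex, in which Ezh2 or Ezh1 is the catalytic subunit, and it covers silent developmental genes, often over CpG islands and across gene bodies. H3K4me3 is the mark of active and poised promoters, and promoters that carry both marks are called bivalent. Lgr5 encodes the R-spondin receptor that amplifies Wnt signals and marks stem cells of the intestinal crypt. Tspan8 encodes a tetraspanin of the cell membrane. Basal cells form the outer layer of the mammary epithelium and include contractile myoepithelial cells as well as cells that can rebuild a gland after transplantation.

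The H3K27me3 libraries held 5148698 and 5207820 counts in Lgr5+Tspan8- cells and 4338218 and 6972189 counts in Lgr5-Tspan8- cells, within a range of 2639862 to 6972189 over the 8 H3K27me3 libraries and of 1472251 to 4740371 over the 8 H3K4me3 libraries. H3K27me3 counts followed gene length (Spearman's rho 0.8 across 24946 genes, which are not independent replicates), so levels are compared between genes only per kb. A marker check used the H3K4me3 libraries. Basal markers carried the mark, with 140.4 and 171 CPM (counts scaled to the size of the library) at the basal keratin gene Krt5 in Lgr5+Tspan8- cells and 106.1 and 148 CPM in Lgr5-Tspan8- cells, although Trp63, which encodes the basal transcription factor p63, had under 10 counts in each of these 4 H3K4me3 libraries. No marker on any list of another cell type was at 0 in all 4. Luminal markers carried the mark too, at 892 and 887 CPM summed over 12 pan-luminal genes in Lgr5+Tspan8- cells. The presence of the mark therefore does not set basal cells apart from others.

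H3K27me3 differed between Lgr5+Tspan8- and Lgr5-Tspan8- cells at 29 of 22099 genes tested (edgeR quasi-likelihood test, Benjamini-Hochberg adjusted p under 0.05), which is 0.131% of them. It was higher at 4 genes (0.0181%) and lower at 25 genes (0.113%) in Lgr5+Tspan8- cells. The 4 genes with more H3K27me3 were Tbx2, its divergent neighbour 2610027K06Rik, Pde3a and Ptprt. The 25 genes with less H3K27me3 included Lgr5 itself, surface receptors (Grik3, Gfra2, Cntfr, Adra1d), the transcription factors Nfatc1 and Creb5 and the cytoskeletal genes Enah and Map1b. An unadjusted p under 0.05 was found for 1164 genes, or 5.27%.

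Promoters of called genes are shown first, because H3K27me3 in mammals is laid down over CpG-rich sequence and the 4 examples run from 13 to 50 CG dinucleotides. Each line runs 5′ to 3′ on the strand of the gene and holds 250 bases before and 50 bases after the transcript start, from RefSeq (GRCm38.p6), with every CG dinucleotide in capitals. Grik3 (chr4:125490446-125490745, plus strand), Cntn2 (chr1:132542891-132543190, minus strand) and Nfatc2 (chr2:168601608-168601907, minus strand) had less H3K27me3 in Lgr5+Tspan8- cells, and Ptprt (chr2:162661098-162661397, minus strand) had more. The Grik3 and Cntn2 starts used by the table lie 437 and 311 bases inside the outermost annotated start.
Grik3: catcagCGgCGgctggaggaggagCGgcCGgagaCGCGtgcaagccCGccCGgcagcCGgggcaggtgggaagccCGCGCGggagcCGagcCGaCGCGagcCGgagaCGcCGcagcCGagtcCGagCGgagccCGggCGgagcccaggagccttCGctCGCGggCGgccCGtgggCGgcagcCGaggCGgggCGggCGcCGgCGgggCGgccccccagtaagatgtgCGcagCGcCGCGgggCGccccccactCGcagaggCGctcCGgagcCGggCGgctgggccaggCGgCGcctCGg
Cntn2: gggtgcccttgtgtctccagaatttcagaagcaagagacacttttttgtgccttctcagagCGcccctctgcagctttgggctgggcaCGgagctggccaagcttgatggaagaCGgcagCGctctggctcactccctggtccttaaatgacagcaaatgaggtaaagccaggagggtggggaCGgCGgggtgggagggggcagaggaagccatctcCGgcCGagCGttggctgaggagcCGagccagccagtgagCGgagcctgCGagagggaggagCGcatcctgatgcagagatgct
Nfatc2: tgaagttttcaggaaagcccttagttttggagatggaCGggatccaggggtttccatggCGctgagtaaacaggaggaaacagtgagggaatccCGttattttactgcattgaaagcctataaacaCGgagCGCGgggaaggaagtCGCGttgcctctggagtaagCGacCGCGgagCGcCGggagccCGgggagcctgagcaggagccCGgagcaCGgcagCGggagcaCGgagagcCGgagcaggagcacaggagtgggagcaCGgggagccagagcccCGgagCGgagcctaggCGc
Ptprt: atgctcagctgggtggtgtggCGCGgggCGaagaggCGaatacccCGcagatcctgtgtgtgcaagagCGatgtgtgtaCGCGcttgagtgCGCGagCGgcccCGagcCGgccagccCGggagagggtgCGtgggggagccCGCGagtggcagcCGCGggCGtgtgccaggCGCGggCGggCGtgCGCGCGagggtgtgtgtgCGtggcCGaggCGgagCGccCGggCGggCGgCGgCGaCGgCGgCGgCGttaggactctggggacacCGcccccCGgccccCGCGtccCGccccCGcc

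The Grik3 window held 50 CG dinucleotides and the Ptprt window 46, more than in 98.9% and 97.9% of the promoters of tested genes. The Nfatc2 window held 23 and the Cntn2 window 13, at the 70.5 and 48.0 percentiles. The motif searched was CG, which reads the same on both strands. Promoters were matched for 17 of the 29 called genes, of which 16 had lower H3K27me3 in Lgr5+Tspan8- cells. Those 16 windows had a median of 22.5 CG dinucleotides, against a median of 13 over 16186 promoters of tested genes. An observed-to-expected CG ratio over 0.6 was found in 12 of the 16 (75%), against 48.8% of all windows. The 16 windows ranged widely, with as few as 3 CG dinucleotides at A930009A15Rik. Not all of them lie at the outermost annotated start. Those of Enah (49 CG dinucleotides), Cntfr and Adamtsl5 were furthest inside it, by 7576, 1054 and 582 bases.

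Tbx2, a T-box transcription factor gene of the developing mammary line (chromosome 11, 85832615 to 85841948, plus strand), had 83.4 and 73.3 CPM of H3K27me3 in the Lgr5+Tspan8- libraries and 33.5 and 28.8 CPM in the Lgr5-Tspan8- libraries. The level was 2.52-fold higher in Lgr5+Tspan8- cells, or 1.34 ± 0.18 (SE) as a log2 fold change (edgeR adjusted p = 0.000354). In Lgr5+Tspan8hi cells it was 91.6 and 105 CPM and in Lgr5-Tspan8hi cells 80.6 and 97.8 CPM. Both Lgr5-Tspan8- libraries thus lay below the other 6. The uncharacterised gene 2610027K06Rik, named after its values were seen, starts 0.227 kb from Tbx2 on the opposite strand. It had 53.6 and 50.6 CPM in Lgr5+Tspan8- cells and 28.0 and 26.7 CPM in Lgr5-Tspan8- cells (log2 fold change 0.93 ± 0.19, edgeR adjusted p = 0.0396). Since their starts lie so close together, the pair are read here as 1 locus. 2610027K06Rik also overlaps Bcas3 on the opposite strand (log2 fold change 0.18 ± 0.13, not past the threshold), and shared reads cannot be told apart. The Tbx2 call held under each of the 18 alternatives, while that of 2610027K06Rik ended when any 1 of the 4 libraries compared was left out (in the order Lgr5+Tspan8- replicates 1 and 2, Lgr5-Tspan8- replicates 1 and 2, adjusted p = 0.876, 0.495, 0.0679 and 0.186).

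Pde3a encodes a phosphodiesterase that hydrolyses cyclic AMP and cyclic GMP (chromosome 6, 141249269 to 141506862, plus strand). It had 272 and 262 CPM of H3K27me3 in Lgr5+Tspan8- cells and 135 and 122 CPM in Lgr5-Tspan8- cells, a 2.08-fold higher level (log2 fold change 1.06 ± 0.13, edgeR adjusted p = 0.000147). The values were 312 and 343 CPM in Lgr5+Tspan8hi and 256 and 264 CPM in Lgr5-Tspan8hi cells, so the Lgr5-Tspan8- libraries were again the low ones of the 8. Pde3a overlaps the predicted gene Gm10400 on the same strand, whose reads cannot be told apart from its own. Ptprt, a receptor-type tyrosine phosphatase gene over a megabase long (chromosome 2, 161521988 to 162661147, minus strand), had 1751 and 1790.0 CPM in Lgr5+Tspan8- cells against 1129.5 and 1095 CPM in Lgr5-Tspan8- cells (log2 fold change 0.67 ± 0.10, edgeR adjusted p = 0.00186). Its Tspan8hi libraries had 1783 and 1894 CPM with Lgr5 and 1577 and 1527 CPM without it. Ptprt overlaps Ptprtos on the opposite strand (log2 fold change 1.24 ± 0.78, not past the threshold), and shared reads cannot be told apart. The Pde3a call held under all 18 alternatives and that of Ptprt under 17, ending without Lgr5+Tspan8- replicate 2 (adjusted p = 0.0794).

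Since fewer than 10 genes passed as higher, the next by p, Rik clones and predicted genes aside, are given with their values. None of these 7 passed. The largest of them in size was Ceacam12, a member of the carcinoembryonic antigen family, at 18.1 and 20.2 CPM in Lgr5+Tspan8- and 8.32 and 9.01 CPM in Lgr5-Tspan8- cells (log2 fold change 1.13 ± 0.29, edgeR adjusted p = 0.172). Calcrl, which encodes a receptor for calcitonin gene-related peptide and adrenomedullin, had 148 and 126 CPM against 86.7 and 87.7 CPM (adjusted p = 0.0847 in edgeR). Ror2, a receptor for Wnt5a, stood at 386 and 397 CPM in Lgr5+Tspan8- and 273 and 273 CPM in Lgr5-Tspan8- cells (log2 fold change 0.52 ± 0.12, edgeR adjusted p = 0.0868). The libraries of the 2 groups did not overlap at any of these 3 genes. Stac, Zfhx4, Xylt1 and Opcml had log2 fold changes of 0.64, 0.56, 0.47 and 0.42 (edgeR adjusted p from 0.0847 to 0.165).

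**Figure D1:**
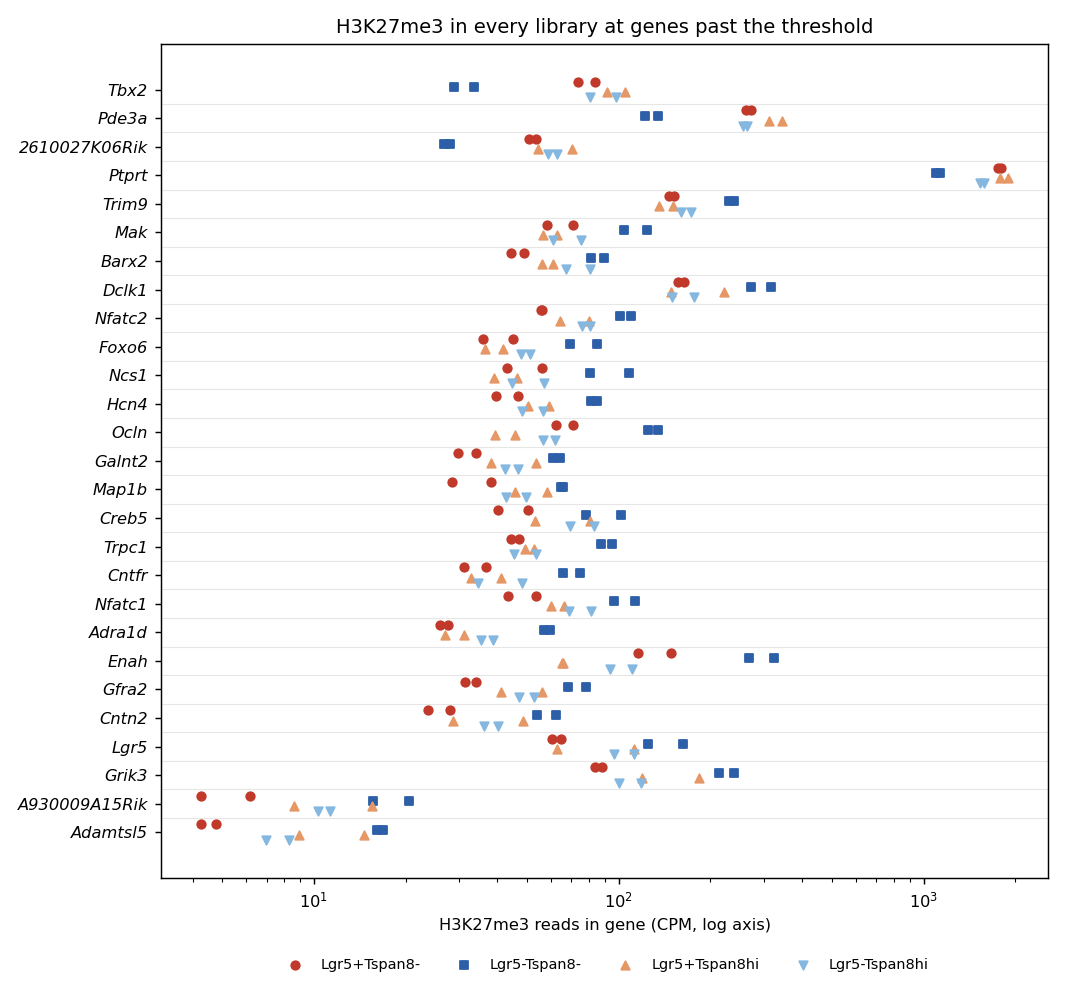
H3K27me3 at the 27 genes past the threshold that have a symbol, in CPM on a log axis, with 1 point for each of the 8 libraries. At Tbx2, Pde3a, 2610027K06Rik and Ptprt the Lgr5-Tspan8- squares lie to the left of all other points, and at most of the lower genes they lie to the right of all others.

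Lgr5 (chromosome 10, 115450314 to 115587780, minus strand) had 64.7 and 60.3 CPM of H3K27me3 in Lgr5+Tspan8- cells and 163 and 125 CPM in Lgr5-Tspan8- cells. This was a 2.29-fold lower level in the cells sorted as Lgr5+ (log2 fold change -1.20 ± 0.20, edgeR adjusted p = 0.007). The Tspan8hi pair did not separate, at 112 and 62.5 CPM in Lgr5+Tspan8hi and 112 and 96.6 CPM in Lgr5-Tspan8hi cells (log2 fold change -0.25 ± 0.20, edgeR adjusted p = 0.806). The difference between the 2 contrasts was -0.95 ± 0.28 and did not pass either (edgeR adjusted p = 0.584). A930009A15Rik, an uncharacterised gene that starts inside Lgr5 on the opposite strand and was also named after its values were seen, had 6.16 and 4.27 CPM in Lgr5+Tspan8- and 20.6 and 15.6 CPM in Lgr5-Tspan8- cells (log2 fold change -1.78 ± 0.36, edgeR adjusted p = 0.0383). Its reads and those of Lgr5 cannot be told apart. Tspan8, on the same chromosome 229.0 kb from Lgr5, had 17.9 and 17.3 CPM in Lgr5+Tspan8- and 29.1 and 21.5 CPM in Lgr5-Tspan8- cells and did not pass (log2 fold change -0.52 ± 0.27, edgeR adjusted p = 0.988). The Lgr5 call ended without Lgr5+Tspan8- replicate 1 or 2 (adjusted p = 0.377 and 0.494), and that of A930009A15Rik without any 1 of the 4 libraries compared.

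The other lower genes are given by broad kind of product, as an order of reading only. The share of each kind among all genes tested was not counted. Receptors of the cell surface and the adhesion gene Cntn2 come first. Grik3, which encodes a subunit of kainate-type glutamate receptors (chromosome 4, 125490259 to 125714173, plus strand), had 83.8 and 88.4 CPM in Lgr5+Tspan8- cells and 214 and 239 CPM in Lgr5-Tspan8- cells. The level was 2.63-fold lower (log2 fold change -1.40 ± 0.17, edgeR adjusted p = 0.000147), and the call held under all 18 alternatives. Gfra2, the neurturin-binding co-receptor of Ret (chromosome 14, 70890107 to 70979840), had 31.4 and 33.9 CPM in Lgr5+Tspan8- and 68.4 and 78.4 CPM in Lgr5-Tspan8- cells (log2 fold change -1.17 ± 0.19, edgeR adjusted p = 0.00683). Cntfr, the ligand-binding subunit of the ciliary neurotrophic factor receptor, had 31.0 and 36.8 CPM against 65.7 and 74.9 CPM (log2 fold change -1.05 ± 0.20, edgeR adjusted p = 0.0283). The 2 groups of libraries did not overlap at these genes, which the naming rule required. Adra1d, the alpha-1D adrenergic receptor gene, stood at 27.6 and 26.0 CPM in Lgr5+Tspan8- and 59.6 and 56.8 CPM in Lgr5-Tspan8- cells (log2 fold change -1.12 ± 0.20, edgeR adjusted p = 0.0125). Cntn2, an immunoglobulin-family adhesion molecule of axons (chromosome 1, 132509425 to 132543251, minus strand), had 28.0 and 23.7 CPM in Lgr5+Tspan8- and 54.1 and 62.3 CPM in Lgr5-Tspan8- cells (log2 fold change -1.18 ± 0.23, edgeR adjusted p = 0.0283). Without Lgr5+Tspan8- replicate 1 the adjusted p was 0.389 for Gfra2 and Adra1d, 0.924 for Cntfr and 0.402 for Cntn2; without replicate 2 it was 0.321, 0.495, 0.475 and 0.936 for Gfra2, Adra1d, Cntfr and Cntn2; and without Lgr5-Tspan8- replicate 2 these 4 calls also ended (0.0548, 0.0504, 0.172 and 0.154 in the same order).

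The channel gene Trpc1, a subunit of cation channels of the plasma membrane, had 47.1 and 44.4 CPM in Lgr5+Tspan8- and 95.0 and 87.7 CPM in Lgr5-Tspan8- cells (log2 fold change -0.997 ± 0.17, edgeR adjusted p = 0.00907). Hcn4, the cyclic nucleotide-gated channel of pacemaker cells, lay outside the naming rule, was picked after its values were seen, and differed by -0.94 ± 0.18 on the log2 scale (edgeR adjusted p = 0.0253). Both had higher H3K27me3 in each Lgr5-Tspan8- library than in any of the other 6. Without Lgr5+Tspan8- replicate 1 or 2 the Trpc1 call ended (adjusted p = 0.377 and 0.494), and that of Hcn4 ended without these or Lgr5-Tspan8- replicate 2 (0.876, 0.411 and 0.116).

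Genes of the cytoskeleton come next in this order. Enah, which promotes the elongation of actin filaments (chromosome 1, 181896384 to 182027556, minus strand), had 148 and 116 CPM in Lgr5+Tspan8- cells and 268 and 322 CPM in Lgr5-Tspan8- cells, a 2.24-fold lower level (log2 fold change -1.16 ± 0.15, edgeR adjusted p = 0.000325). In the Tspan8hi pair it was 65.5 and 65.4 CPM with Lgr5 and 110.4 and 93.3 CPM without, so that the 4 subpopulations kept the order Lgr5-Tspan8-, Lgr5+Tspan8-, Lgr5-Tspan8hi, Lgr5+Tspan8hi from high to low. The libraries of the middle pair in that order came within a few CPM of each other. Map1b, a microtubule-associated protein gene, had 38.1 and 28.3 CPM in Lgr5+Tspan8- and 64.7 and 65.8 CPM in Lgr5-Tspan8- cells (log2 fold change -0.97 ± 0.20, edgeR adjusted p = 0.0383). Dclk1, a kinase that binds microtubules, was outside the naming rule and had 164 and 157 CPM in Lgr5+Tspan8- and 316 and 272 CPM in Lgr5-Tspan8- cells (log2 fold change -0.87 ± 0.16, edgeR adjusted p = 0.0141). At these 3 genes no Lgr5+Tspan8- library reached an Lgr5-Tspan8- library, as at every gene called lower on this same difference. The Enah call ended without Lgr5+Tspan8- replicate 2 (adjusted p = 0.106), that of Dclk1 without Lgr5+Tspan8- replicate 1 or 2 (0.389 and 0.495), and that of Map1b without these or Lgr5-Tspan8- replicate 2 (0.331, 1.0 and 0.131) and with loess offsets against mean abundance (0.0516).

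The called transcription factor genes are given together here. Nfatc1, which encodes a factor that enters the nucleus on calcineurin signalling (chromosome 18), had 43.3 and 53.7 CPM in Lgr5+Tspan8- and 96.2 and 113 CPM in Lgr5-Tspan8- cells (log2 fold change -1.11 ± 0.17, edgeR adjusted p = 0.0035). Its relative Nfatc2, outside the naming rule and named because both were called, had 55.6 and 56.2 CPM against 109.8 and 101 CPM (log2 fold change -0.91 ± 0.16, edgeR adjusted p = 0.013). The Tspan8hi libraries of both genes lay between the 2 groups, at 66.4 and 60.1 CPM in Lgr5+Tspan8hi and 68.6 and 81.0 CPM in Lgr5-Tspan8hi cells for Nfatc1. Creb5, a basic leucine zipper factor, had 50.2 and 40.3 CPM in Lgr5+Tspan8- and 101 and 78.4 CPM in Lgr5-Tspan8- cells (log2 fold change -0.98 ± 0.20, edgeR adjusted p = 0.0383). The forkhead gene Foxo6 and the homeobox gene Barx2, also named after their values were seen, had log2 fold changes of -0.93 ± 0.19 and -0.87 ± 0.17 (edgeR adjusted p = 0.0383 and 0.0336). The Foxo6 call ended without Lgr5+Tspan8- replicate 1 or 2 or Lgr5-Tspan8- replicate 2 (adjusted p = 0.377, 1.0 and 0.315) and with loess offsets against mean abundance (0.0509), and that of Barx2 ended without the same libraries (0.443, 0.827 and 0.0504). Without Lgr5+Tspan8- replicate 1 the adjusted p was 0.389 for Nfatc1, 0.443 for Nfatc2 and 0.389 for Creb5, without replicate 2 it was 0.0739, 0.494 and 1.0, and the Creb5 call also ended without Lgr5-Tspan8- replicate 1 (0.0781), with loess offsets against mean abundance (0.0522) and with a mean of at least 5 CPM (0.0516).

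The strongest fold change among the lower genes belonged to Adamtsl5, a secreted matrix protein gene of the ADAMTS-like family, at only 4.77 and 4.27 CPM in Lgr5+Tspan8- and 16.9 and 16.1 CPM in Lgr5-Tspan8- cells (log2 fold change -1.86 ± 0.36, edgeR adjusted p = 0.0296). Its call ended without any 1 of the 4 libraries compared (adjusted p from 0.0531 to 0.654). The remaining lower genes, all outside the naming rule, were Galnt2 (O-linked glycosylation), the tight junction gene Ocln, the calcium sensor gene Ncs1, the kinase gene Mak, the ubiquitin ligase gene Trim9 and 2 identifiers with no symbol. Ocln had 70.9 and 62.2 CPM in Lgr5+Tspan8- and 125 and 134 CPM in Lgr5-Tspan8- cells (log2 fold change -0.96 ± 0.16, edgeR adjusted p = 0.007). The log2 fold changes of Galnt2, Ncs1, Mak and Trim9 were -0.97, -0.94, -0.82 and -0.66 (edgeR adjusted p from 0.0383 to 0.0442). The Ocln call ended without Lgr5+Tspan8- replicate 1 or 2 or Lgr5-Tspan8- replicate 2 (adjusted p = 0.242, 0.495 and 0.0504). Those of Galnt2, Ncs1, Mak and Trim9 ended without each of the same 3 libraries (adjusted p from 0.116 to 1.0) and with loess offsets against mean abundance (from 0.0509 to 0.055). Ncs1 and Mak also ended with a mean of at least 5 CPM (0.0536 and 0.0516), Mak and Trim9 without either Lgr5+Tspan8hi library (from 0.0504 to 0.057), and Trim9 with only the 4 libraries compared (0.0895). The H3K27me3 level per kb had a median of 1.14 CPM per kb over the 23 lower genes with a known length and 1.12 over the 4 higher ones, against 0.617 over all genes tested.

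The 4 libraries compared did not weigh equally. Leaving out Lgr5+Tspan8- replicate 1 left 3 higher and 2 lower genes past the threshold, without Lgr5+Tspan8- replicate 2 there were 2 and 1, without Lgr5-Tspan8- replicate 1 there were 10 and 85, and without Lgr5-Tspan8- replicate 2 there were 3 and 14. Of the 29 calls, 5, 3, 25 and 12 remained in these 4 refits, and no sign changed. Tbx2, Pde3a and Grik3 passed in all of them. The unchanged signs are no support for the calls, since the libraries of the 2 groups did not overlap at any called gene. With library offsets fitted against reads per kb of gene, 24 genes were higher and 52 lower, so that 68.4% were lower in place of 86.2%.

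In the Tspan8hi background the Lgr5 contrast gave no gene past the threshold (0 of 22099, or 0%, in edgeR and 0 in DESeq2), although 1595 genes (7.22%) had an unadjusted p under 0.05. The Lgr5+Tspan8hi and Lgr5-Tspan8hi libraries entered neither side of the Tspan8- contrast and shared with it the estimate of spread. Of the 25 genes lower in Lgr5+Tspan8- cells, 16 were below 0 in the Tspan8hi pair, with a median log2 fold change of -0.17, against 51.1% below 0 and a median of -0.01 over all genes tested. The 4 higher genes, with Tbx2 and 2610027K06Rik at the same locus, were above 0 in the Tspan8hi pair as well, with a median of 0.19. Enah had the lowest unadjusted p of these genes there, with a log2 fold change of -0.63 ± 0.16 (unadjusted p = 0.000542, edgeR adjusted p = 0.621). Adamtsl5 ran the other way at 0.66 ± 0.35 (edgeR adjusted p = 0.73). The count in the Tspan8hi pair rested on 1 library: without Lgr5-Tspan8hi replicate 2, which left the shallow replicate 1 of 2639862 counts alone in its group, 232 genes were higher and 85 lower.

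**Figure D2:**
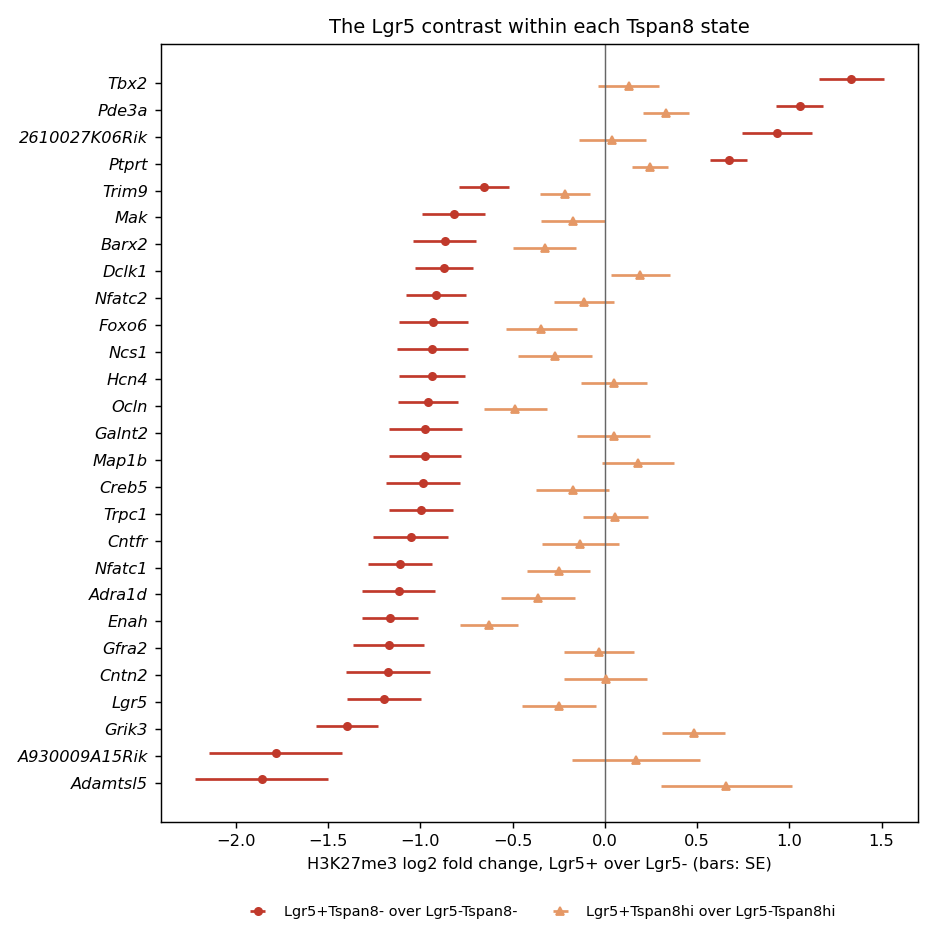
H3K27me3 log2 fold change of Lgr5+ over Lgr5- libraries, with SE, at the 27 called genes with a symbol, in Tspan8- cells (circles) and Tspan8hi cells (triangles). Most triangles sit near 0. Those of 9 lower genes lie on the other side of 0 from their circles, furthest at Adamtsl5 and Grik3.

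Where the 8 libraries are set side by side, it was mostly the Lgr5-Tspan8- pair that stood apart at the called genes. At the 4 higher genes both Lgr5-Tspan8- libraries lay outside the range of the other 6. Of the 25 lower genes, 12 had the Lgr5-Tspan8- pair alone outside the range of the rest, 12 had both the Lgr5-Tspan8- and the Lgr5+Tspan8- pair outside it on opposite sides, and 1, Creb5, had only the Lgr5+Tspan8- pair outside it. Among the 22070 genes that were not called, 2181 had the Lgr5-Tspan8- pair apart, 1309 the Lgr5+Tspan8- pair, 75 both and 18505 neither. The genes were called on the difference between these pairs, so the counts describe them and test nothing.

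The difference between the 2 Lgr5 contrasts passed the threshold at 2 genes, both lower, or 0.00905% of 22099 (1215 genes, or 5.5%, at an unadjusted p under 0.05). Grik3 was 184 and 119 CPM in Lgr5+Tspan8hi and 119 and 99.97 CPM in Lgr5-Tspan8hi cells, a log2 fold change of 0.48 ± 0.17 there against -1.40 ± 0.17 in Tspan8- cells. The interaction was -1.88 ± 0.24 (SE; edgeR adjusted p = 0.000717) and missed the threshold only without Lgr5+Tspan8- replicate 1 (adjusted p = 0.0521, in a range of 2.6e-08 to 0.0521 over the alternatives run for it). Grik3 thus had its highest values in Lgr5-Tspan8- cells and its lowest in Lgr5+Tspan8- cells. Rimklb, which encodes an enzyme that joins glutamate to N-acetylaspartate, had 20.9 and 16.1 CPM in Lgr5+Tspan8- and 43.5 and 35.3 CPM in Lgr5-Tspan8- cells, which missed the threshold on its own (-1.09 ± 0.24 on the log2 scale, edgeR adjusted p = 0.0697). In Tspan8hi cells the order was turned round, at 42.7 and 32.5 CPM in Lgr5+Tspan8hi and 17.0 and 19.9 CPM in Lgr5-Tspan8hi cells. Its interaction was -2.10 ± 0.34 (edgeR adjusted p = 0.0183) and ended when Lgr5+Tspan8- replicate 1 or 2, Lgr5-Tspan8- replicate 1 or Lgr5+Tspan8hi replicate 1 was left out (adjusted p = 0.101, 0.436, 0.0758 and 0.37).

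H3K4me3 from other libraries of the same subpopulations gave a second readout of these genes. H3K4me3 differed between Lgr5+Tspan8- and Lgr5-Tspan8- cells at 2 of 19009 genes, or 0.0105%, both lower, which were Tbx2 and 2610027K06Rik, and at 510 genes (2.68%) at an unadjusted p under 0.05. Tbx2 had 63.1 and 66.4 CPM of H3K4me3 in Lgr5+Tspan8- cells and 115 and 144 CPM in Lgr5-Tspan8- cells (log2 fold change -1.02 ± 0.21, edgeR adjusted p = 0.0256). At 2610027K06Rik the values were nearly the same, at 64.5 and 65.1 CPM against 122 and 144 CPM, so the 2 calls are read as 1 locus. Counted per gene, H3K4me3 at Tbx2 thus ran opposite to H3K27me3, with the Lgr5-Tspan8- libraries high in H3K4me3 and low in H3K27me3. The H3K4me3 call ended with DESeq2 (adjusted p = 0.119), without Lgr5+Tspan8- replicate 1 or 2 (0.391 and 0.263) and without Lgr5-Tspan8- replicate 2 (1.0), in a range of 0.000862 to 1.0. Pde3a had 39.0 and 49.3 CPM of H3K4me3 in Lgr5+Tspan8- and 73.5 and 84.9 CPM in Lgr5-Tspan8- cells (log2 fold change -0.87 ± 0.25, edgeR adjusted p = 1.0), and Ptprt had a log2 fold change of -0.56 ± 0.25, neither of which passed.

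All 4 genes with more H3K27me3 were below 0 in H3K4me3, with a median log2 fold change of -0.94. Tbx2 and 2610027K06Rik among them belong to the same locus and are not independent of each other. Of the 25 genes with less H3K27me3, 19 were above 0 in H3K4me3 and 6 below, with a median of 0.25, against 50.8% above 0 and a median of 0.00 over 16407 genes tested for both marks. The overlapping genes Lgr5 and A930009A15Rik are both counted among the 25, although they are not independent either. Lgr5 had 95.9 and 99.99 CPM of H3K4me3 in Lgr5+Tspan8- cells and 51.9 and 72.8 CPM in Lgr5-Tspan8- cells, which did not overlap and did not pass (log2 fold change 0.62 ± 0.21, edgeR adjusted p = 1.0). Cntn2 had 62.0 and 80.8 CPM of H3K4me3 in Lgr5+Tspan8- and 30.3 and 34.8 CPM in Lgr5-Tspan8- cells (log2 fold change 1.10 ± 0.26, edgeR adjusted p = 0.194). Grik3 stood at 139 and 164 CPM of H3K4me3 against 91.6 and 117 CPM (log2 fold change 0.51 ± 0.17, edgeR adjusted p = 1.0). At Enah the H3K4me3 libraries overlapped, at 119 and 91.1 CPM in Lgr5+Tspan8- and 105 and 98.8 CPM in Lgr5-Tspan8- cells.

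**Figure D3:**
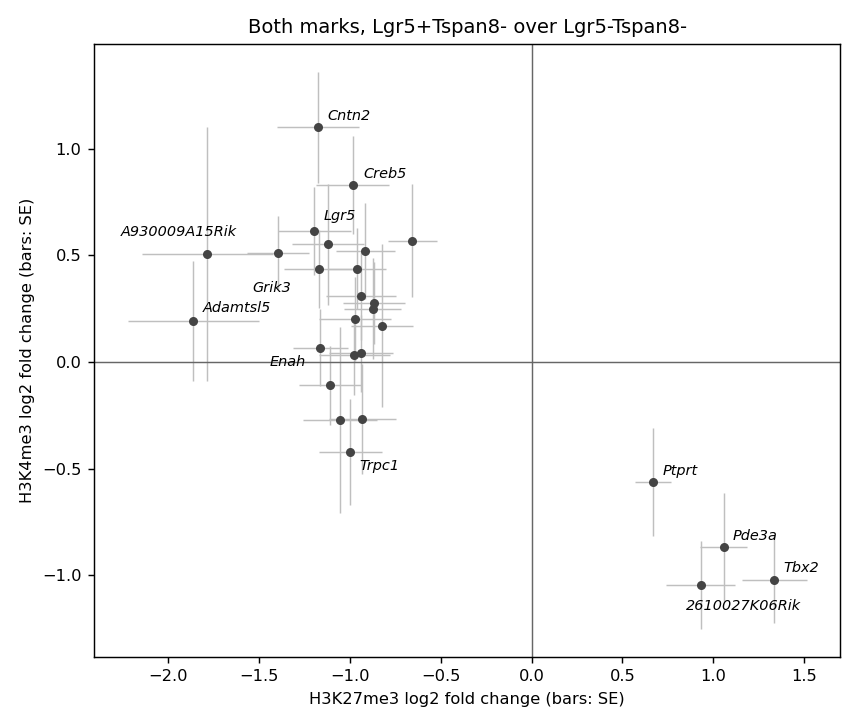
Log2 fold change of Lgr5+Tspan8- over Lgr5-Tspan8- cells in H3K27me3 (x axis) and H3K4me3 (y axis) at the 27 called genes with a symbol, with SE. The 4 genes higher in H3K27me3 all lie below 0 in H3K4me3, from -0.56 at Ptprt to -1.05 at 2610027K06Rik, and most of the lower genes lie above 0. Tbx2 and 2610027K06Rik belong to the same locus.

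The genes around each called gene were read as well. Within 300 kb of the lower genes, 129 tested neighbours that do not overlap them included 0 past the threshold by edgeR, against 0.131% of all genes tested, a share at which a count of 0 among so few is no result. Of these neighbours 79 were below 0 and the median log2 fold change was -0.10, against 50.5% below 0 and a median of -0.00 over all genes tested. Around Lgr5, the overlapping A930009A15Rik passed, while Zfc3h1, Thap2, Tmem19 and Rab21 on the other side from Tspan8 had log2 fold changes of 0.01, -0.06, -0.52 and -0.47 (edgeR adjusted p = 1.0 each). Grik3 had no tested neighbour in that window. Around the higher genes, 11 non-overlapping neighbours included 2 past the threshold, which were Tbx2 and 2610027K06Rik counted for each other. The other genes near Tbx2 did not pass. Nearest neighbours were few for Pde3a, where Gm10400, which overlaps it, had a log2 fold change of 1.67 and Slco1c1 of 0.34 (edgeR adjusted p = 0.657 and 0.993).

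**Figure D4:**
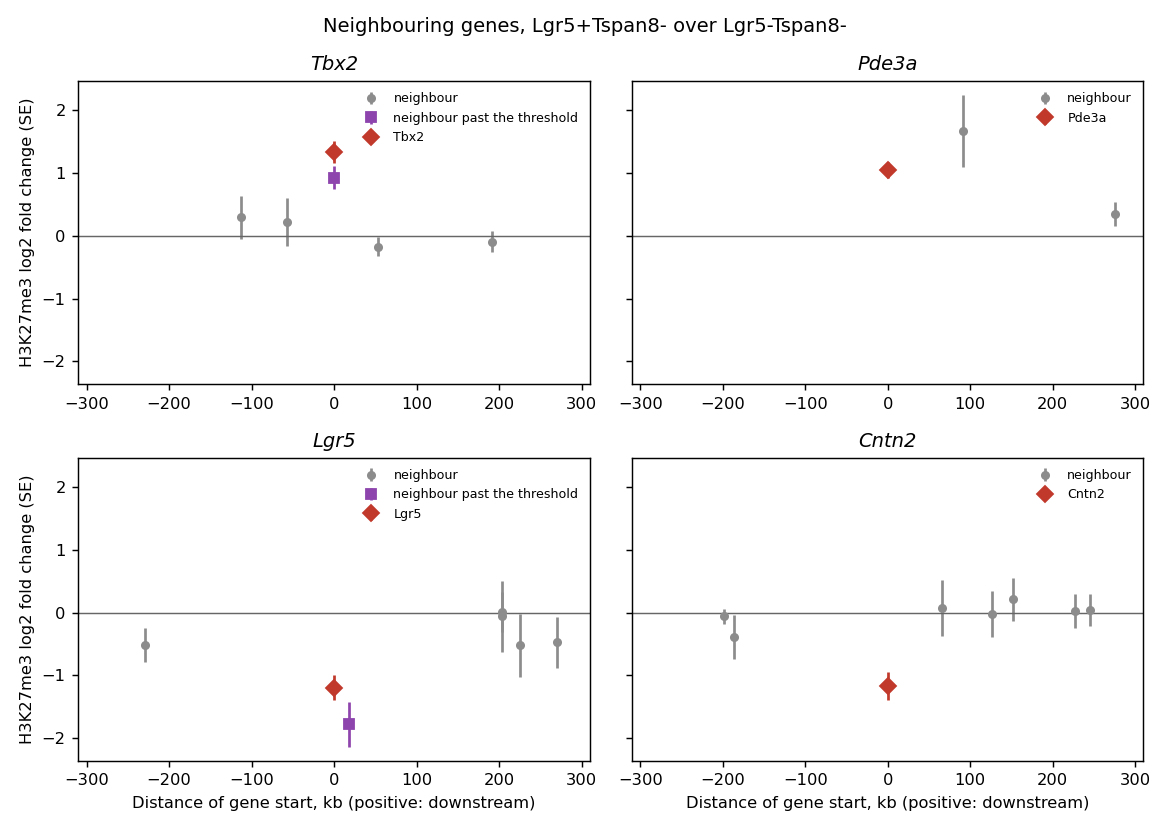
H3K27me3 log2 fold change, with SE, of genes within 300 kb of Tbx2, Pde3a, Lgr5 and Cntn2 by the distance of their starts in kb along the direction of the gene. The large diamond is the called gene, squares are neighbours past the threshold (2610027K06Rik beside Tbx2 and A930009A15Rik inside Lgr5), and none of the other neighbours passed, among them Gm10400, which overlaps Pde3a, at 1.67 and Tspan8 and Tmem19 beside Lgr5 at -0.52 each.

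Gene lists were described by counts and medians, beside a median log2 fold change of -0.00 and 50.5% of genes below 0 over all genes tested. Members of the lists passed singly at Lgr5 (lower) and Tbx2 (higher). Among Wnt receptors and co-receptors, 16 of 21 were below 0, with a median of -0.23, 1 lower and 0 higher by edgeR. Of the 23 Wnt and R-spondin ligand genes, 21 were below 0 (median -0.28) and none passed. Wnt11, a ligand mostly of the non-canonical pathway, had 6.75 and 6.98 CPM in Lgr5+Tspan8- and 16.6 and 13.5 CPM in Lgr5-Tspan8- cells (log2 fold change -1.12 ± 0.33, edgeR adjusted p = 0.377). Of 23 secreted Wnt inhibitors and Wnt targets, 18 were below 0 (median -0.28) and none passed. The inhibitor gene Sfrp1 stood at 31.4 and 25.8 CPM against 59.6 and 55.0 CPM (log2 fold change -1.001 ± 0.28, edgeR adjusted p = 0.314), and Dkk1, another inhibitor of the pathway, had a log2 fold change of -0.79. These medians shrank to -0.04 for the receptors and -0.01 for the inhibitors and targets without Lgr5-Tspan8- replicate 1, and to -0.17 for the ligands without Lgr5-Tspan8- replicate 2.

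Of 27 tested T-box and other transcription factor genes of the mammary line, 23 were below 0, with a median of -0.30, and Tbx2 alone passed, in the higher direction. Tbx3, its closest relative and picked after its values were seen, stood at 4.57 and 3.88 CPM in Lgr5+Tspan8- and 10.4 and 9.61 CPM in Lgr5-Tspan8- cells, which did not pass (log2 fold change -1.24, edgeR adjusted p = 0.613). Among the Notch, TGF-beta and BMP, Hedgehog and FGF and EGF family lists no gene passed in either direction by edgeR, with 12 of 15, 18 of 26, 15 of 22 and 8 of 15 members below 0 and medians of -0.26, -0.10, -0.20 and -0.01. Id1, a target of BMP signalling, had the lowest value, at 1.59 and 1.55 CPM in Lgr5+Tspan8- and 7.40 and 8.41 CPM in Lgr5-Tspan8- cells (log2 fold change -2.32 ± 0.60, edgeR adjusted p = 0.212). In the adhesion and matrix list 27 of 32 were below 0 with a median of -0.27 (-0.10 without Lgr5-Tspan8- replicate 1), and in the axon guidance list 22 of 36 with a median of -0.09. Tnc, the matrix glycoprotein tenascin-C, had 124 and 100.04 CPM against 186 and 158 CPM (log2 fold change -0.62 ± 0.15, edgeR adjusted p = 0.141).

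All 50 developmental transcription factor genes and 37 of 39 Hox genes, the classical targets of Polycomb, were below 0, with medians of -0.33 and -0.34, and none passed singly by edgeR. Pax6 had 223 and 250.1 CPM in Lgr5+Tspan8- and 295 and 364 CPM in Lgr5-Tspan8- cells (log2 fold change -0.48 ± 0.13, edgeR adjusted p = 0.32). These medians followed 1 library. The H3K27me3 density over Hox genes, as a multiple of that of the median gene, was 17.5 and 20.03 in Lgr5+Tspan8- cells and 16.9 and 28.2 in Lgr5-Tspan8- cells. Without Lgr5-Tspan8- replicate 2 the medians were -0.04 for developmental and -0.05 for Hox genes, without Lgr5-Tspan8- replicate 1 they were -0.56 and -0.57, and with offsets against reads per kb -0.06 and -0.05. Of the X-linked genes, 747 of 1021 were below 0, with a median of -0.10 that turned to 0.11 without Lgr5-Tspan8- replicate 2.

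Basal and myoepithelial genes had a median of -0.48 in Tspan8- cells, with 16 of 20 below 0 and none past the threshold by edgeR, against a median of 0.40 with 3 of 20 below 0 in the Tspan8hi pair. The difference between the 2 contrasts was not tested. Summed over the list, H3K27me3 was 467 and 427 CPM in Lgr5+Tspan8- and 641 and 471 CPM in Lgr5-Tspan8- cells. In the Tspan8hi pair it was 760.0 and 573 CPM in Lgr5+Tspan8hi and 568 and 501 CPM in Lgr5-Tspan8hi cells. In each contrast 1 library, Lgr5-Tspan8- replicate 1 or Lgr5+Tspan8hi replicate 1, stood well above the others. Without Lgr5-Tspan8- replicate 1 the median in Tspan8- cells was -0.27, and over the 4 libraries left out in turn it ranged from -0.69 to -0.27. Mylk, the myosin light chain kinase of contractile cells, had 73.9 and 77.5 CPM in Lgr5+Tspan8- and 120.0 and 106 CPM in Lgr5-Tspan8- cells (log2 fold change -0.57 ± 0.16, edgeR adjusted p = 0.32). Pan-luminal markers, which the neighbouring inner cell layer expresses, were all 12 below 0 with a median of -0.80, and none passed by edgeR. In the Tspan8hi pair 5 of these 12 markers were below 0, with a median of 0.21, and this difference was not tested either. Summed over the list their H3K27me3 was 68.7 and 68.8 CPM in Lgr5+Tspan8- and 102 and 113 CPM in Lgr5-Tspan8- cells. The claudin gene Cldn7, of the tight junctions, made up a large share of these sums, at 22.04 and 23.7 CPM in Lgr5+Tspan8- and 24.3 and 42.2 CPM in Lgr5-Tspan8- cells (log2 fold change -0.56, edgeR adjusted p = 0.945). The other members thus had low H3K27me3 counts on average, and the list median rests on them. Summed H3K4me3 of the pan-luminal markers ran the other way, at 892 and 887 CPM in Lgr5+Tspan8- and 786 and 796 CPM in Lgr5-Tspan8- cells, with 10 of 12 above 0 and none past the threshold by edgeR. The basal and myoepithelial list shared that direction in H3K4me3. Its sums were 2097 and 2161 CPM in Lgr5+Tspan8- and 1881 and 2023 CPM in Lgr5-Tspan8- cells. Of its tested genes 16 of 19 were above 0 in H3K4me3 (median 0.12), and none passed by edgeR. Other luminal lists did not share it. The hormone-sensing luminal sum was 415 and 381 CPM in Lgr5+Tspan8- and 449 and 451 CPM in Lgr5-Tspan8- cells, where 10 of 12 genes were below 0 (median -0.22), and luminal progenitor genes had 5 of 10 below 0. In H3K27me3 the hormone-sensing list had a median of -0.17 with 10 of 12 below 0, and the progenitor list one of -0.12 with 7 of 11 below 0, which was -0.43 without Lgr5+Tspan8- replicate 1 and -0.38 without Lgr5-Tspan8- replicate 2. Muc1, a membrane mucin on the pan-luminal list, had 1.99 and 3.49 CPM of H3K27me3 in Lgr5+Tspan8- and 6.24 and 7.06 CPM in Lgr5-Tspan8- cells (log2 fold change -1.27 ± 0.57, edgeR adjusted p = 0.91). The pan-luminal median ranged from -1.10 to -0.57 as each Tspan8- library was left out.

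Some H3K4me3 sums over markers of cells outside the epithelium differed between the groups without overlap, although no member of these lists passed the threshold by edgeR. Summed over 12 fibroblast markers the H3K4me3 level was 290 and 303 CPM in Lgr5+Tspan8- and 359 and 374 CPM in Lgr5-Tspan8- cells. Endothelial markers had 115 and 136 CPM against 143 and 147 CPM, and adipocyte markers 132 and 133 CPM against 166 and 161 CPM, while pericyte and immune sums overlapped between the groups. Of the fibroblast markers 4 of 11 tested were above 0 in H3K4me3 and 7 below, against 49.4% below 0 over all genes tested. Below 0 were also 8 of 8 pericyte, 8 of 8 endothelial, 4 of 5 adipocyte and 2 of 2 immune markers tested. Dcn, the matrix proteoglycan decorin of fibroblasts and named after its values were seen, had 27.3 and 15.8 CPM of H3K4me3 in Lgr5+Tspan8- and 65.3 and 58.9 CPM in Lgr5-Tspan8- cells (log2 fold change -1.47, edgeR adjusted p = 0.11). This 1 gene made up a large part of the gap between the fibroblast sums. Several defining markers had under 10 counts of H3K4me3 in each of the 4 libraries, namely Fap for fibroblasts, Erg for endothelium, Cd79a, Lyz2 and Laptm5 for immune cells and Adipoq, Plin1 and Cidec for fat cells. In H3K27me3 the medians of these lists were -0.09 for fibroblast, -0.00 for endothelial and adipocyte, -0.18 for pericyte and 0.05 for immune markers. The part of such cells in the differences between Lgr5+Tspan8- and Lgr5-Tspan8- libraries was not tested.

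A few lists had medians above 0. Housekeeping genes (10 of 15 tested) had a median of 0.35, proliferation genes 0.20, genes of the Polycomb complexes 0.13, cell cycle brakes 0.10 and 626 olfactory receptor genes 0.16, and none passed in either direction by edgeR. Without Lgr5+Tspan8- replicate 1 the medians of the brakes and of the Polycomb complexes were -0.16 and -0.00, and without Lgr5+Tspan8- replicate 2 that of the proliferation genes was 0.06. Within the proliferation list Mki67 had 20.5 and 16.9 CPM in Lgr5+Tspan8- and 12.9 and 8.26 CPM in Lgr5-Tspan8- cells (log2 fold change 0.84 ± 0.30, edgeR adjusted p = 0.717). Cdkn2a, a cell cycle inhibitor gene held silent by Polycomb in many cell types, had 205 and 169 CPM in Lgr5+Tspan8- and 209.7 and 259 CPM in Lgr5-Tspan8- cells (log2 fold change -0.33 ± 0.14, edgeR adjusted p = 0.909). Its libraries did not overlap, by a margin of a few CPM.

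**Figure D5:**
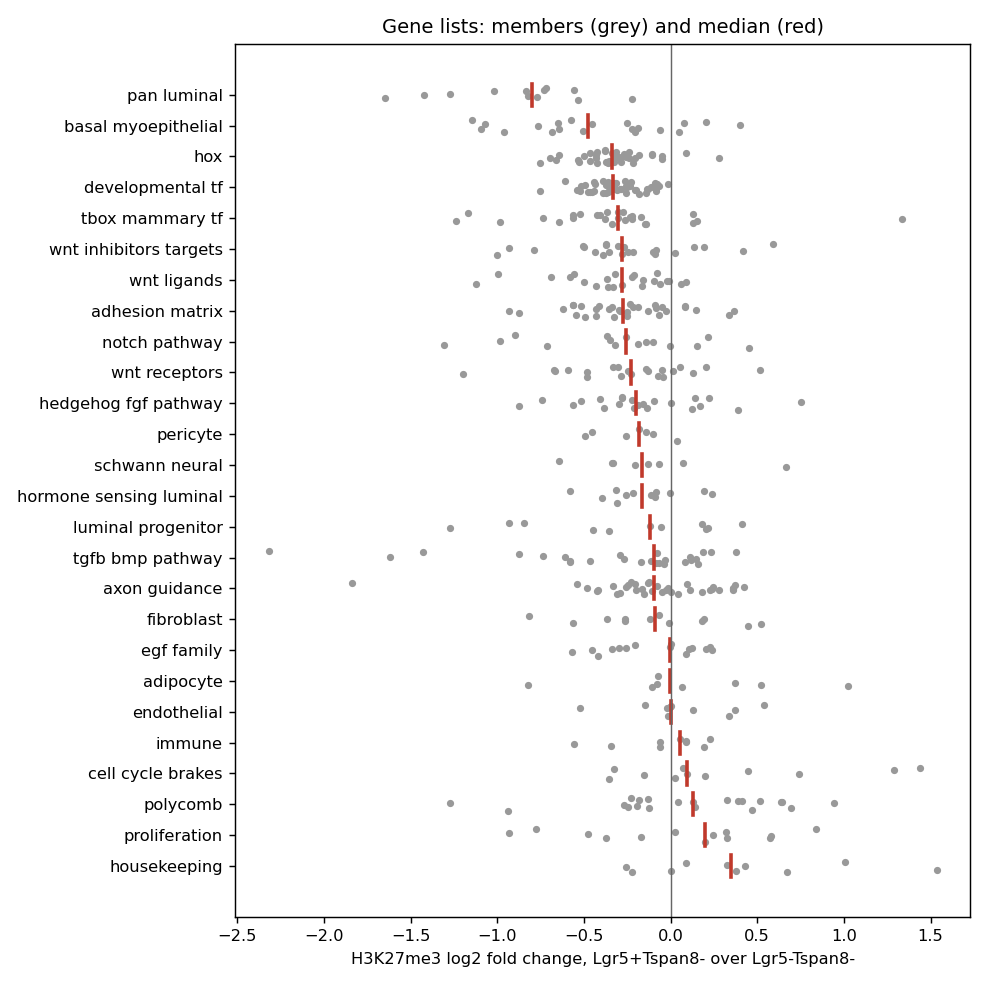
H3K27me3 log2 fold change of Lgr5+Tspan8- over Lgr5-Tspan8- cells for each tested member of 26 gene lists (grey points) and the list median (red bar). The pan-luminal median lies lowest at -0.80 and the housekeeping median highest at 0.35, and the T-box list shows Tbx2 at 1.34 far to the right of its other members.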

How the data were processed

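Chromatin of sorted mouse mammary basal cells was immunoprecipitated for H3K27me3 or H3K4me3 and sequenced. The authors deposited raw read counts per Entrez gene for each of 16 libraries, made on mm10 with featureCounts, both named in the submitters' processing notes. Not given in the sources used here were the region counted, the annotation, the aligner and all versions. No value is relative to input, since the 8 input samples were not analysed here.

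Symbols came from RefSeq GRCm38.p6 and matched 25189 of 27080 identifiers. Each mark was fitted on its 8 libraries with edgeR 4.0.16 in R 4.3.3 (filterByExpr, TMM factors, robust quasi-likelihood test, a mean for each subpopulation, 4 residual degrees of freedom, Benjamini-Hochberg adjustment over all genes tested). The biological coefficient of variation was 16.8% for H3K27me3 and 16% for H3K4me3. CPM is a gene's count scaled by the TMM-adjusted library total over tested genes. The same pipeline was tested on simulated counts. The chi-square per degree of freedom between replicate libraries was 3.1 to 5.93, above sampling noise. Alternatives used DESeq2 1.42.0, limma-voom (limma 3.58.1), other scalings and filters, a replicate block and each library left out.

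The genes named were Lgr5, Tspan8, up to 12 called genes in each direction by size whose groups of libraries did not overlap (Rik clones, predicted genes, small RNAs, olfactory receptors and unnamed identifiers aside), where fewer than 10 passed the next by p up to 10, from each list up to 4 called members or the 2 with the smallest p, and called interaction genes. Others are said to be picked after their values were seen. The comparison and the gene lists were chosen with earlier results of these data known. The lists are described and not tested.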

Additional observations from a re-analysis of the deposited data

Results flagged for a closer look

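The Lgr5 contrast in H3K27me3 differed between Tspan8- and Tspan8hi cells at 2 genes by the edgeR interaction test. At Grik3 the log2 fold change of Lgr5+ over Lgr5- was -1.40 in Tspan8- cells and 0.48 in Tspan8hi cells, a difference of -1.88 ± 0.24 (SE, n = 2 libraries in each of 4 groups; edgeR adjusted p = 0.000717). Both Lgr5+Tspan8- libraries lay below both Lgr5-Tspan8- libraries, and both Lgr5+Tspan8hi libraries lay above both Lgr5-Tspan8hi libraries, by as little as 118.9 against 118.7 CPM. At Rimklb the difference was -2.10, made of -1.09 in Tspan8- cells and 1.01 in Tspan8hi cells (edgeR adjusted p = 0.0183). Each was lower in 2 of 2 Lgr5+Tspan8- libraries.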

How the results depend on the processing

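For the Tspan8- contrast, H3K27me3 was higher and lower at 4 and 25 genes. The lower count was 42 with only the 4 libraries compared, 37 with no filter on low counts, 22 with a mean of at least 5 CPM (3 of the 29 calls ended) and 18 with loess offsets against mean abundance (7 ended). With loess offsets against reads per kb 24 were higher and 52 lower, with DESeq2 11 and 52, and with limma-voom 10 and 47. Leaving out 1 library gave 2 to 10 higher and 1 to 85 lower. The Tspan8hi contrast had 0 and 0, and 0 to 232 and 0 to 85 with 1 library left out. The interaction had 0 higher and 2 lower genes, 2 and 10 with DESeq2, and 0 to 13 and 0 to 96 with 1 library left out. H3K4me3 had 0 higher and 2 lower, 0 lower with DESeq2, and 0 to 4 and 0 to 3 with 1 library left out. The cause of these changes was not tested. Where 1 library was left out of a pair, the lone library was assumed to vary like the other groups. The replicate number, used as a block, gave 17 higher and 62 lower genes, 1 and 12 for the interaction and 1 higher for H3K4me3. The deviations of same-numbered libraries correlated at 0.263 between the 2 groups compared, the highest value, and at 0.0242 to 0.26 in the other H3K27me3 pairs. In H3K4me3 the same 2 groups also had the highest value, 0.231, against 0.0336 to 0.14 in the other pairs. Whether the numbers mark a pairing cannot be told from the labels, and the main fit used none. For single named genes 1440 values kept their direction and side of the threshold, 58 passed newly and 86 no longer passed. List medians moved by less than the spread between replicates in 419 combinations of a list and a setting, and by more in 45. No called gene changed sign. Leaving out 1 of the libraries compared could not turn a sign, since the 2 groups did not overlap at any called gene. With 2 libraries a group, smaller differences were not detectable at this depth, and reads of overlapping genes stay mixed.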
